A study of Mus musculus with 30 samples.

Results

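IgG1 plasma cells (PC) were compared with germinal centre (GC) B cells of the same isotype and the same reporter status. The 5 arrays used were those titled as GFP-positive IgG1 PC (2, all that the series has) and GFP-positive IgG1 GC (3), of 30 arrays in the series. Of the probe sets with a single gene symbol, the brightest was kept for each gene, and 12098 genes passed a filter on dim signals and were tested.

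All cells came from mesenteric lymph nodes of CeGFP BALB/c mice on day 10 of infection with the intestinal worm Nippostrongylus brasiliensis, so no group here is uninfected. In CeGFP mice an IRES-GFP cassette follows the coding part of membrane IgE, so that cells transcribing it are GFP-positive. Per the labels, GFP in an IgG1 cell marks a further rearrangement, to the epsilon constant region, on the heavy chain chromosome that is not expressed. The IgG1 PC were sorted as IgG1+ GFP+ CD95+ CD138+ and the IgG1 GC cells as IgG1+ GFP+ B220+ CD95+ CD138-. Further groups of the same experiment served for comparison: IgE PC (4 arrays, GFP+) and IgE GC cells (3, GFP+), which had the same gates with IgE in place of IgG1, GFP-negative IgG1 GC cells (3), and naive B cells (3), which were B220+ and lacked CD95, CD138, IgG1 and IgE. Each array was hybridised with RNA from a separate sort and a pool of 3 mice, so p-values measure the spread between pools, and spread between single mice was not seen.

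A germinal centre is a site in a lymph node where activated B cells divide, mutate their antibody genes and compete for T cell help. BCL6, BACH2 and PAX5 hold cells in this state, and the exit to the plasma cell fate is driven by IRF4, by BLIMP-1 (the product of Prdm1), which shuts down the B cell programme, and by XBP1, which enlarges the secretory apparatus. A plasma cell gives up antigen receptor signalling and antigen presentation and turns most of its endoplasmic reticulum (ER) to the folding and export of antibody.

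Values are log2 signals, and a difference of 1 is 2-fold. Array medians lay between 5.28 and 5.47. Over the genes tested, the 2 IgG1 PC arrays correlated at 0.923 and the 3 GFP-positive IgG1 GC arrays at 0.949 to 0.977, with GC replicate 3 the lowest. The 2 IgG1 PC arrays differed from each other by more than 1 in 1180 genes tested. The 3 GFP-positive IgG1 GC arrays spanned more than 1 in 1083. Of the 1180 genes, 281 were called, beside 2593 of all 12098 genes tested. The sort markers checked the labels: Sdc1, the CD138 gene, was at 8.46 and 8.04 in IgG1 PC against 4.68, 4.58 and 4.44 in IgG1 GC cells. Fas, the CD95 gene used in both gates, was at 8.09 and 7.77 in IgG1 PC against 9.01, 8.64 and 8.07 in IgG1 GC cells, with overlapping arrays, and was not called. Ptprc, whose B220 isoform was in the GC gate and not in the PC gate, fell by 0.98 in IgG1 PC. The IgG1 constant region gene Ighg1 was not analysed here.

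Between IgG1 PC and GFP-positive IgG1 GC cells 2593 genes were called at an adjusted p under 0.05 (limma, Benjamini-Hochberg over all genes tested), which is 21.4% of them. Of these, 1007 were higher in IgG1 PC (8.32%) and 1586 lower (13.1%). At least 2-fold differences were seen for 734 of the higher and 1051 of the lower genes, and at least 16-fold differences for 23 and 31. All but 20 of the called genes had arrays that did not overlap between the groups. Of all 12098 genes tested, the IgG1 PC arrays lay wholly above the GC arrays for 2499 and wholly below for 3126. Non-overlap was thus common and is not further evidence for a call. The median difference over all genes tested was -0.01. In bulk samples, fewer cells of a type and less RNA per cell cannot be told apart, and since all arrays were scaled alike, a change in total RNA per cell would not be seen.

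Factors of the plasma cell fate rose. Prdm1 was at 9.61 and 9.57 in IgG1 PC against 4.79, 4.85 and 4.89 in IgG1 GC cells (difference 4.74, SE 0.35, adjusted p = 4.76e-08). In GC cells Prdm1 lay at the naive mean of 4.85, and no array of one group came near the other. Irf4, which acts by dose, was at 10.86 and 10.79 in IgG1 PC, against 6.89, 6.71 and 6.16 in IgG1 GC and a mean of 8.26 in naive cells, so the GC arrays were the lowest of the 3 groups (PC minus GC 4.24, SE 0.33). Xbp1 was at 11.70 and 11.49 in IgG1 PC against 8.92, 9.07 and 8.42 in IgG1 GC cells (2.79, SE 0.29).

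Of the 9 fate factors on the list, 7 were higher and 0 lower in IgG1 PC, with a median difference of 2.79. Beside those above they were Creb3l2, an ER-anchored transcription factor (9.71 and 9.18 in IgG1 PC against 4.40, 4.47 and 4.47 in IgG1 GC cells), Tent5c, a poly(A) polymerase (difference 4.82), Ell2, the elongation factor that favours secretory heavy chain transcripts (2.18), and the ER stress sensor Atf6 (1.99). Pou2af1, the B cell coactivator OBF-1, overlapped between the groups, at 11.85 and 11.67 in IgG1 PC and 11.72, 11.76 and 11.83 in IgG1 GC cells, and was not called (-0.01, SE 0.21). Zbtb20, a factor of long-lived plasma cells, was at 9.30 and 7.94 in IgG1 PC against 9.23, 9.0 and 9.62 in IgG1 GC cells and was not called (-0.66, adjusted p = 0.281). Bhlha15, which encodes MIST1, a factor of secretory cells, was not on the list and was at 10.67 and 10.45 in IgG1 PC against 4.95, 4.95 and 5.32 in IgG1 GC cells (5.48).

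**Figure D1:**
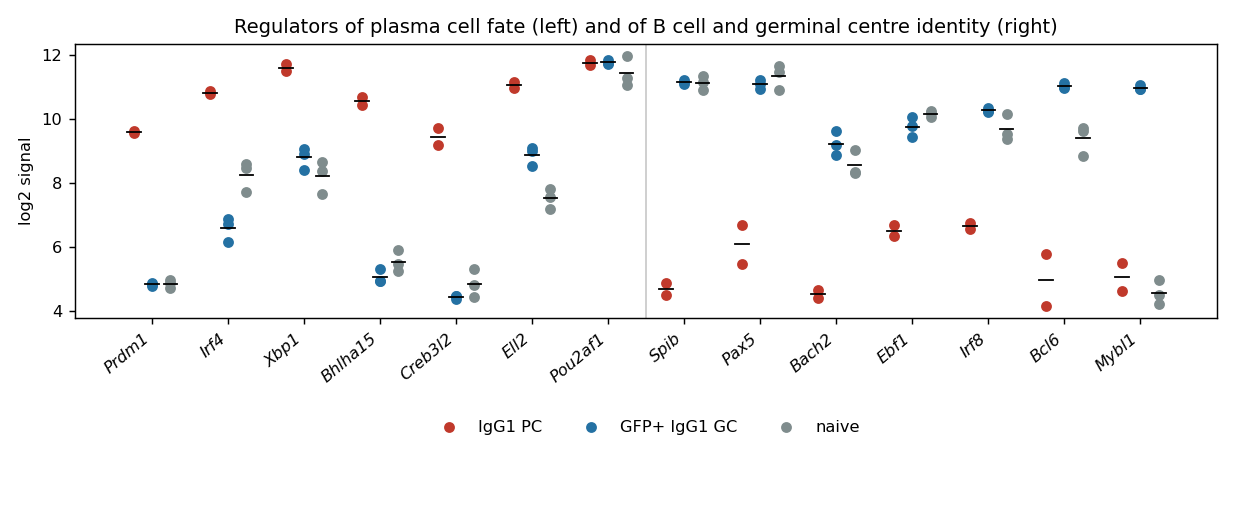
Log2 signal (y axis) of 14 regulators on each array of IgG1 PC (red), GFP-positive IgG1 GC (blue) and naive cells (grey), with the mean of each group as a bar. The plasma cell factors on the left are highest in IgG1 PC except Pou2af1, and the B cell and GC factors on the right are lowest there except Mybl1, where IgG1 PC lie near naive cells.

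The regulators of the B cell and GC states fell. Spib, an ETS factor of B cells, was at 4.89 and 4.51 in IgG1 PC against 11.21, 11.16 and 11.08 in IgG1 GC cells, the largest fall of any gene named by rank (-6.45, SE 0.34, adjusted p = 1.82e-09). Bcl6, the repressor that establishes the GC, was at 5.79 and 4.17 in IgG1 PC against 11.11, 10.96 and 11.01 in IgG1 GC cells (-6.05, SE 0.43). Pax5, the B lineage commitment factor, was at 5.49 and 6.70 in IgG1 PC against 11.23, 10.95 and 11.09 in IgG1 GC cells (-5.00, SE 0.40). Both differed by more than 1 between the 2 IgG1 PC arrays, in opposite directions, and still lay far below every GC array. Bach2, which opposes Prdm1, fell by 4.67, Irf8 by 3.61, Ebf1 by 3.24 and Ets1 by 2.35 on the log2 scale. Ikzf3 and Ikzf1, lymphoid zinc finger factors, fell by 2.11 and 1.27, and Spi1, the PU.1 gene, was not called (-0.41).

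B cell identity genes were lower in IgG1 PC for 19 of 23 tested and higher for 0, with a median difference of -2.70. The surface members included Cd22, an inhibitory coreceptor (5.50 and 6.47 in IgG1 PC against 11.33, 10.96 and 11.26 in IgG1 GC cells), the complement receptor Cr2 (-4.86), Cd72 (-4.85), the CD23 gene Fcer2a (-4.49) and Ms4a1, the CD20 gene (-2.68). Cd24a was not called (11.89 and 11.72 in IgG1 PC against 11.85, 11.75 and 11.39 in IgG1 GC cells). Of the GC programme 15 of 17 genes were lower and 1 higher, with a median of -1.69. Mybl1, an A-MYB factor of GC cells, was at 4.64 and 5.50 in IgG1 PC against 11.05, 10.92 and 10.93 in IgG1 GC cells (-5.89), and Rgs13, a damper of chemokine receptor signals, at 3.39 and 3.96 in IgG1 PC against 9.37, 8.61 and 9.94 in IgG1 GC cells (-5.63). S1pr2, which confines cells to the follicle, fell by 0.97, though not without IgG1 PC replicate 2. Ezh2, a histone methyltransferase, was at the threshold (-0.69, adjusted p = 0.0496) and was not called without either IgG1 PC array or without GC replicate 1 or 2. The member that rose was Fut8, which adds core fucose to N-glycans (10.45 and 9.60 in IgG1 PC against 7.94, 7.75 and 6.88 in IgG1 GC cells).

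Against naive cells, IgG1 PC had 2065 genes higher (17.1%) and 1475 lower (12.2%). These values share the IgG1 PC arrays with the comparison above, so they are given side by side only. Of the 1007 genes higher in IgG1 PC than in IgG1 GC cells, 764 were also higher than in naive cells and 9 were lower. Of the 1586 lower genes, 800 were also lower than in naive cells, 109 were higher, and 677 were not called against naive cells. The B cell identity list lay below both other groups, with medians of -2.70 against GC and -3.34 against naive cells, whereas the GC programme lay at -1.69 against GC and at -0.06 against naive cells, with 7 of its 17 genes higher and 4 lower than in naive cells.

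**Figure D2:**
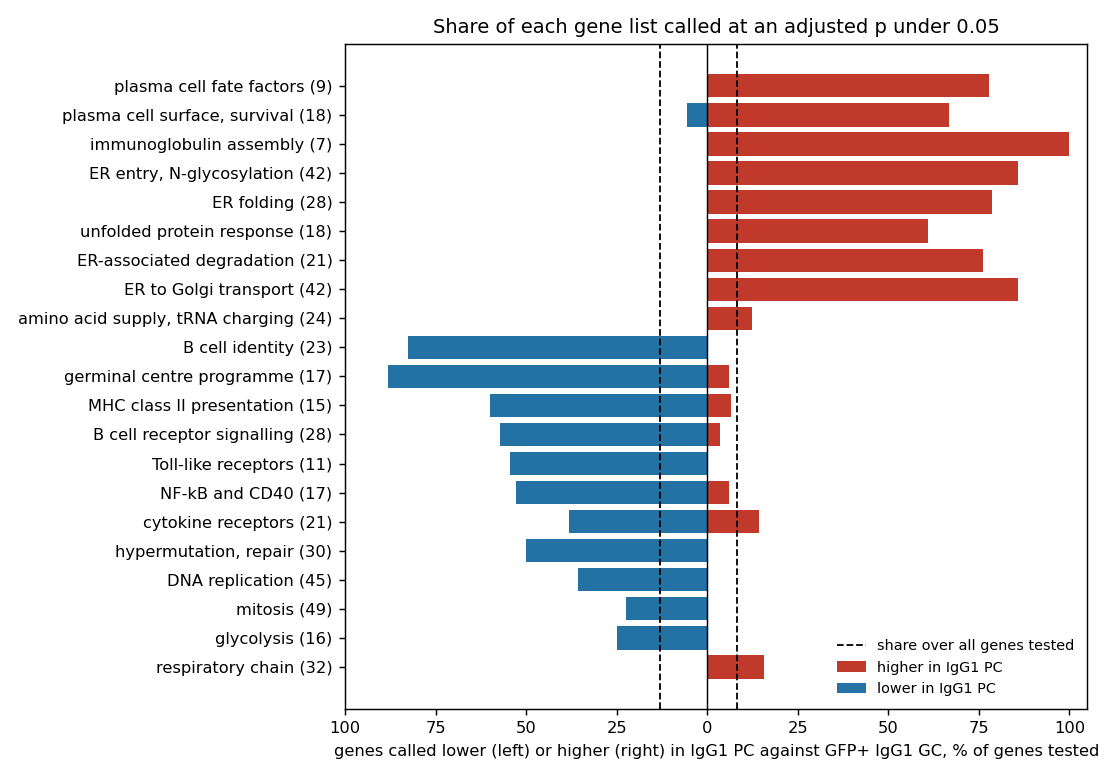
Percent of the tested genes of each list (number tested in parentheses) called higher (red, right) or lower (blue, left) in IgG1 PC against GFP-positive IgG1 GC cells at an adjusted p under 0.05. The dashed lines mark the shares over all genes tested, 8.32% higher and 13.1% lower; the secretory lists lie far to the right and the B cell and GC lists far to the left.

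The secretory route was described from the entry of a new chain into the ER to its arrival at the Golgi. All 5 of its lists moved one way, with 0 genes called lower. For entry and N-glycosylation, 36 of 42 genes were higher, with a median difference of 1.64. Srprb, a subunit of the signal recognition particle receptor, was at 10.32 and 10.36 in IgG1 PC against 7.03, 6.75 and 7.27 in IgG1 GC cells. Tram2, which assists translocation, rose by 3.07, Sec61a1, the pore of the translocon, by 2.35, and Ssr4, of the translocon-associated complex, by 2.87. Of the oligosaccharyltransferase that attaches the glycan, Ddost rose by 2.62, Stt3a by 2.21, Rpn2 by 2.06 and Rpn1 by 1.96. Its other catalytic subunit, Stt3b, which glycosylates sites missed by the first, was not called (-0.16), and Tusc3 was not called either (-0.88), but was without IgG1 PC replicate 2 (-1.52), with GFP-negative GC arrays in the comparison (-1.02) and with all 6 GC arrays (-0.95).

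ER folding genes were higher for 22 of 28, with a median of 2.03. Hspa5, the chaperone BiP that binds free heavy chains, was at 12.12 and 11.89 in IgG1 PC against 10.41, 10.44 and 10.06 in IgG1 GC cells (1.70, SE 0.18). Hsp90b1, the chaperone GRP94, was at 12.77 and 12.75 in IgG1 PC against 10.85, 10.87 and 10.54 in IgG1 GC cells (2.00, SE 0.19). The disulphide isomerase Pdia4 was at 11.96 and 11.62 in IgG1 PC against 8.30, 7.40 and 7.73 in IgG1 GC cells (3.98), which was above Pdia6 (2.34), P4hb (1.80) and Pdia3 (1.28) in size of difference. Creld2 rose by 3.88, the peroxiredoxin Prdx4 by 2.74, and the BiP cochaperone Dnajc3 by 2.73. Fkbp11, a prolyl isomerase of secretory cells, was at 10.21 and 9.67 in IgG1 PC against 4.92, 4.89 and 4.89 in IgG1 GC cells (5.04). Calr, the lectin chaperone calreticulin, rose by 1.44, while its membrane-bound relative Canx was not called (0.58, adjusted p = 0.0678).

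The unfolded protein response has 3 sensors, and they differed. Ern1, which encodes IRE1-alpha, the enzyme that splices Xbp1 mRNA, was at 10.24 and 8.78 in IgG1 PC against 4.80, 4.91 and 4.57 in IgG1 GC cells (4.75, SE 0.38). Atf6 was at 10.30 and 10.34 in IgG1 PC against 8.62, 8.47 and 7.89 in IgG1 GC cells. Eif2ak3, which encodes PERK, the sensor that slows translation, was at 9.04 and 8.39 in IgG1 PC against 8.95, 8.65 and 8.86 in IgG1 GC cells, with overlapping arrays (-0.10, SE 0.31, adjusted p = 0.861). PERK acts through Atf4 (0.47), Trib3 (-0.09), Chac1 (0.62), Asns (0.74) and Ppp1r15a (0.56), none of which was called, and Ddit3, the CHOP gene, was called at 0.79 but not without IgG1 PC replicate 2. Chac1 turned on single arrays, with 1.41 and a call without IgG1 PC replicate 2 and -0.18 without replicate 1, and Atf4 was called without GC replicate 2 (0.57). In all, 11 of the 18 genes of this response were higher and 0 lower. Dnajb9, a BiP cochaperone, rose by 3.31. Amino acid supply and tRNA charging genes, many of them Atf4 targets, were higher for 3 of 24, a share of 12.5% beside 8.32% over all genes, and for 5 without IgG1 PC replicate 1 or without GC replicate 2. The amino acid transporter subunit Slc3a2 rose by 1.63.

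Genes of ER-associated degradation, which returns misfolded chains to the cytosol, were higher for 16 of 21 (median 1.24). Derl3 was at 11.33 and 10.93 in IgG1 PC against 7.14, 7.35 and 7.88 in IgG1 GC cells (3.68), and its relatives Derl1 and Derl2 rose by 1.43 and 0.97. The mannose-trimming genes Edem2 and Edem1 rose by 3.09 and 2.46, and Sel1l, the adaptor of the ubiquitin ligase complex, by 2.37. The ligase itself, Syvn1, was not called (0.18). Vesicle transport genes were higher for 36 of 42 (median 1.46). Among the cargo-selecting subunits of the COPII coat, Sec24d was at 9.97 and 9.17 in IgG1 PC against 5.20, 4.62 and 4.81 in IgG1 GC cells (4.69). Its paralogue Sec24a rose by 1.54, though not without IgG1 PC replicate 1, GC replicate 1 or GC replicate 3, and Sec24c (0.90) and Sec24b (-0.50) were not called. Lman1, a cargo receptor for glycoproteins, rose by 2.84, and the SNARE protein gene Bet1 by 3.05.

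**Figure D3:**
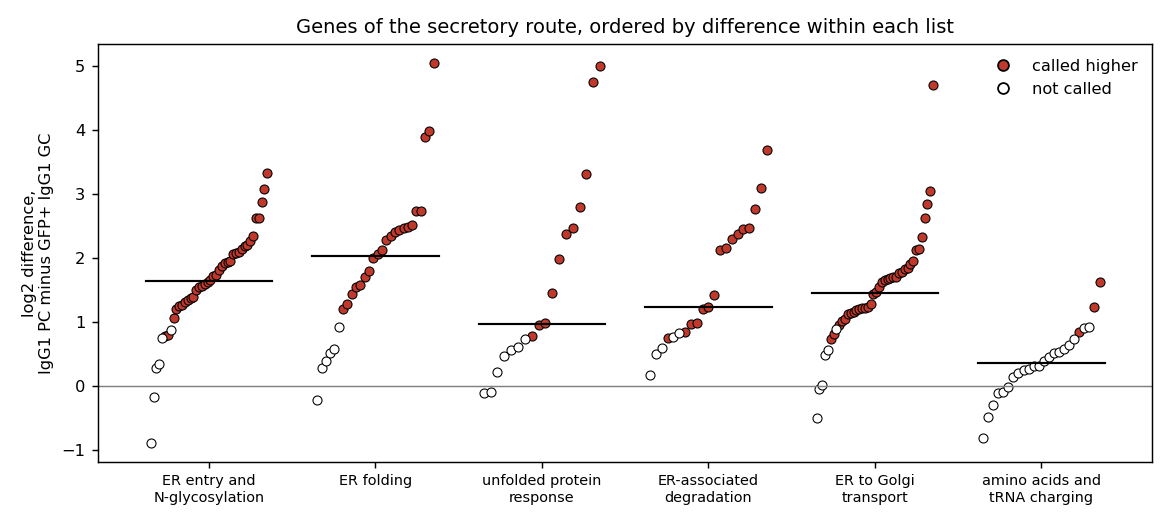
Log2 difference, IgG1 PC minus GFP-positive IgG1 GC (y axis), of each gene of 6 lists, sorted within its list, with red points for genes called higher, open points for genes not called and a bar at the median. The first 5 lists have medians of 1.64, 2.03, 0.97, 1.24 and 1.46, and the amino acid list 0.36.

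Promoters of these genes were searched for elements of the unfolded protein response, which ATF6 and XBP1 are known to bind. The ER stress response element was searched as CCAAT, any 9 bases, then CCACG, and the core of the XBP1 and ATF6 element as TGACGTGG, on both strands of 250 bases before to 50 after each RefSeq gene start (build GRCm38.p6). The reverse complement of CCACG lies within the second motif, so the pair can overlap. A gene was counted where any of its starts had a match. The first motif was found for 8 of 25 ER folding genes (32%) and 2 of 17 degradation genes (11.8%), against 0.166% of the genes tested. It was found for 0 of 31 entry and glycosylation, 0 of 17 stress response and 0 of 36 vesicle transport genes. The second was found for 6 of 36 vesicle transport genes (16.7%), 2 of 17 degradation genes (11.8%) and 2 of 25 ER folding genes (8%), against 1.12% of the genes tested, and for 0 of the entry and stress response genes. Counted per single promoter, 0.119% of all 32851 promoters held the first motif and 0.676% the second. A match describes the letters only. Of the 10 genes of these lists with the first motif, Canx, Ero1b and Syvn1 were not called, with differences of 0.58, 0.52 and 0.18. The windows below show the motif in capitals for genes that rose, the first 7 with the stress response element and the last 3 with the core element.
Hspa5, chr2:34772020-34772049, plus strand: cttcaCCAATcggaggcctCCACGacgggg
Calr, chr8:84847069-84847098, plus strand: tatgggCCAATgagggtcgaCCACGcgttg
Derl3, chr10:75893237-75893266, minus strand: ggctagCCAATggggaagtcCCACGgtaga
Hsp90b1, chr10:86705527-86705556, plus strand: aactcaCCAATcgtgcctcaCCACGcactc
Pdia6, chr12:17266486-17266515, plus strand: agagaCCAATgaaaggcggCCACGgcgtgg
Dnajc3, chr14:118937822-118937851, plus strand: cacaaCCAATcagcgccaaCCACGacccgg
Creld2, chr15:88819515-88819544, minus strand: tgtggaCCAATtgaggctcgCCACGagaag
Sec24d, chr3:123267459-123267488, plus strand: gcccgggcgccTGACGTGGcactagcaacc
Txndc5, chr13:38528034-38528063, minus strand: ggcctcgccgcTGACGTGGcgctagccgcc
Txndc11, chr16:11134616-11134645, minus strand: tgaagtgtggcTGACGTGGagagtccgggt

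Immunoglobulin constant region genes and factors of their assembly rose as well. The IgG1 and kappa constant region genes Ighg1 and Igkc had no probe set of a single symbol and were not analysed. All 7 genes of this list with such a probe set were higher in IgG1 PC, with a median of 2.71. They include Fkbp11, named above under ER folding. Mzb1, an ER cochaperone of antibody secretion, was at 13.04 and 12.98 in IgG1 PC against 10.73, 10.91 and 10.51 in IgG1 GC cells (2.29, SE 0.22). Jchain, which joins IgM and IgA into polymers, was at 12.58 and 12.45 in IgG1 PC, against 10.78, 10.83 and 10.58 in IgG1 GC and a mean of 5.36 in naive cells, so GC cells already lay far above naive cells. Its call (1.79, adjusted p = 0.0212) was lost without either IgG1 PC array or without GC replicate 3. The constant region genes Ighm (2.71), Igha (2.62) and Ighg3 (4.28) were higher, although the sort was for IgG1. Constant regions are alike in sequence, and whether these probe sets also read IgG1 transcripts was not tested. All 8 kappa variable segments tested were higher, with differences of 2.37 to 3.62. This family was chosen after its values were seen.

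Surface and survival molecules of plasma cells were higher for 12 of 18, with 1 lower. Cd28, a costimulatory receptor that sustains long-lived plasma cells, was at 10.10 and 9.95 in IgG1 PC against 4.71, 4.78 and 4.45 in IgG1 GC cells (5.38, SE 0.24). Cd93, needed for the upkeep of bone marrow plasma cells, was at 10.60 and 10.08 in IgG1 PC against 5.84, 5.62 and 4.75 in IgG1 GC cells (4.94). The integrin gene Itga4 rose by 2.94 and the selectin ligand gene Selplg by 2.66. Of the receptors for the survival factors BAFF and APRIL, Tnfrsf17, the BCMA gene, was at 7.62 and 5.91 in IgG1 PC against 4.81, 4.62 and 4.29 in IgG1 GC cells (2.19). Tnfrsf13c, the BAFF receptor gene, fell (10.10 and 10.19 in IgG1 PC against 11.93, 11.87 and 11.67 in IgG1 GC cells, -1.68), and Tnfrsf13b, the TACI gene, was not called (0.28). The survival gene Bcl2l1, which encodes BCL-XL, rose by 1.84, and the death gene Bcl2l11, which encodes BIM, by 1.39, though not without IgG1 PC replicate 1. The other 12 of the 14 BCL2 family genes tested were not called, among them Mcl1 (0.26), the main survival factor of plasma cells, and Bcl2 (-0.51). The 2 called higher make 14.3% of that list, beside 8.32% over all genes tested.

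Several genes outside the lists differed by over 16-fold. Entpd1, the ectonucleotidase CD39, was at 10.44 and 10.86 in IgG1 PC against 4.30, 4.56 and 4.30 in IgG1 GC cells, the largest rise of any gene named by rank (6.26, SE 0.40). Rbm47, an RNA-binding protein gene, rose by 5.06, Hid1, a gene of Golgi and granule trafficking, by 4.87, and Socs2, a brake on cytokine signalling, by 4.29. Tmem154 rose by 4.56, and Trav14-1, a variable segment of the T cell receptor alpha chain, by 4.55. Among those that fell were Parp8, an ADP-ribosyltransferase gene (-5.36), and Myo1e, a class I myosin gene (-4.94). The receptor genes for IL-5 and for the IL-6 family moved the same way: Il5ra was at 9.29 and 8.90 in IgG1 PC against 5.53, 4.89 and 4.38 in IgG1 GC cells (4.16), and Il6st rose by 3.28. The receptors for IL-21 and IL-4, both signals of T follicular helper cells, fell: Il21r was at 6.20 and 5.85 in IgG1 PC against 10.52, 9.91 and 9.90 in IgG1 GC cells (-4.09), and Il4ra fell by 2.94. Cytokine receptor and signalling genes were higher for 3 (14.3%) and lower for 8 (38.1%) of 21, beside 8.32% and 13.1% over all genes tested.

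Many genes that receive antigen and T cell help were lower. B cell receptor signalling genes were lower for 16 of 28, with 1 higher (Vav3, 1.14). The adaptors Bank1 and Pik3ap1 fell by 4.65 and 3.57, the phosphatase gene Ptpn6 by 3.43 and the kinase gene Blk by 2.73. The receptor's own chain gene Cd79a was at 11.50 and 11.25 in IgG1 PC against 11.93, 11.75 and 11.54 in IgG1 GC cells and was not called (-0.37), but was with GFP-negative GC arrays in the comparison (-0.57) and with all 6 GC arrays (-0.47). For MHC class II presentation 9 of 15 genes were lower and 1 higher. That list also holds the costimulatory ligand genes Cd86 (lower) and Cd80 (higher). Ciita, the class II transactivator, was at 5.90 and 5.61 in IgG1 PC against 9.99, 9.67 and 9.72 in IgG1 GC cells (-4.04, SE 0.28). Differences of its targets were smaller, at -0.81 for H2-Aa, -0.54 for H2-Ab1 and -0.31 for the invariant chain gene Cd74, of which only H2-Aa was called, and not without IgG1 PC replicate 1. The peptide-loading regulators H2-Oa and H2-Ob fell by 4.20 and 3.77. The costimulatory ligand gene Cd86 was at 4.02 and 4.15 in IgG1 PC against 9.71, 9.22 and 9.03 in IgG1 GC cells (-5.23), while its relative Cd80 was at 5.13 and 5.91 in IgG1 PC against 4.56, 4.67 and 4.57 in IgG1 GC cells (0.92). That call was lost without IgG1 PC replicate 2 (0.53) and with the mean of all its probe sets (0.49).

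Toll-like receptor genes were lower for 6 of 11 and higher for 0, with Cd180 at -5.06, Tlr1 at -3.95 and Tlr9, which senses CpG DNA, at -2.93. NF-kB and CD40 genes were lower for 9 of 17. Rel, the c-Rel subunit, was at 5.37 and 5.00 in IgG1 PC against 10.21, 10.04 and 10.07 in IgG1 GC cells (-4.93), and Cd40 fell by 2.70. The gene that rose was Ebi3, a cytokine subunit of IL-27 and IL-35 (8.35 and 9.90 in IgG1 PC against 6.64, 6.58 and 6.06 in IgG1 GC cells). Of the homing receptors 3 were higher (20%) and 4 lower (26.7%) of 15, beside 8.32% and 13.1% over all genes tested. Cxcr5, the receptor for the follicle chemokine, was at 3.65 and 4.31 in IgG1 PC against 9.16, 8.65 and 8.41 in IgG1 GC cells (-4.76). Ccr10, a receptor that leads plasma cells to mucosa, was at 7.56 and 7.69 in IgG1 PC against 5.50, 5.63 and 5.73 in IgG1 GC cells (2.00). S1pr1, the egress receptor, was at 9.03 and 7.84 in IgG1 PC, against 6.86, 7.41 and 6.50 in IgG1 GC and a mean of 10.36 in naive cells (PC minus GC 1.51, not called without IgG1 PC replicate 1). Cxcr4, the receptor for the bone marrow chemokine, was not called (0.03).

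Of the cell division genes a minority were called lower than in GC cells, while most were called higher than in naive cells. Over 49 mitosis genes the median signal was 8.05 and 8.29 on the IgG1 PC arrays, against 8.67, 8.77 and 8.55 on the IgG1 GC arrays and 5.07, 5.13 and 5.30 on the naive arrays. Of these genes 11 were lower than in GC cells (22.4%, beside 13.1% over all genes) and 0 higher, with a median difference of -0.50. All 49 were called higher than in naive cells (beside 17.1% over all genes), with a median of 3.09. The proliferation marker gene Mki67 was at 10.62 and 10.45 in IgG1 PC, against 10.69, 10.82 and 10.69 in IgG1 GC and 4.87, 4.89 and 4.97 in naive cells (PC minus GC -0.20, adjusted p = 0.358). Kif23, a motor of cytokinesis, was at 7.55 and 7.79 in IgG1 PC against 9.71, 9.49 and 9.33 in IgG1 GC cells (-1.85, SE 0.18).

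DNA replication genes were lower for 16 of 45 (35.6%), with a median of -0.57, and 37 of 45 were higher than in naive cells. The polymerase genes Pola1 and Pold1 fell by 1.90 and 1.95, the helicase gene Mcm3 by 1.21 and the maintenance methyltransferase gene Dnmt1 by 1.26. Both counts depended on single arrays. Without IgG1 PC replicate 1 they were 7 for replication and 6 for mitosis, without GC replicate 1 they were 9 and 7, and without GC replicate 2 they were 9 and 7. The 2 IgG1 PC arrays also differed, with replicate 2 above replicate 1 for 39 of 45 replication and 41 of 49 mitosis genes. In regulators of the cycle, Ccnd2, cyclin D2, was at 10.08 and 10.10 in IgG1 PC against 6.59, 6.38 and 6.66 in IgG1 GC cells (3.55). Ccnd3, cyclin D3, was at 7.32 and 8.22 in IgG1 PC against 9.66, 9.88 and 9.39 in IgG1 GC cells (-1.87). The inhibitor gene Cdkn1b, which encodes p27, was at 9.08 and 8.25 in IgG1 PC, against 6.12, 6.32 and 5.80 in IgG1 GC and a mean of 8.37 in naive cells (PC minus GC 2.59). Myc was not called (8.06 and 9.59 in IgG1 PC against 9.64, 9.46 and 9.67 in IgG1 GC cells), except without IgG1 PC replicate 2 (-1.53).

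**Figure D4:**
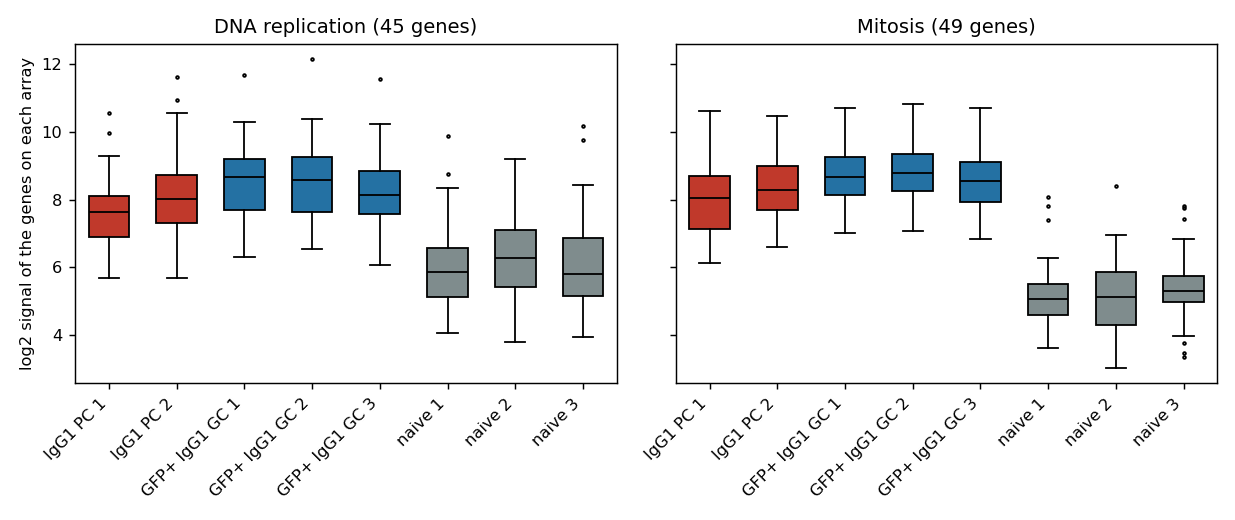
Log2 signal (y axis) of the 45 DNA replication genes (left) and 49 mitosis genes (right) on each array, as boxes from the first to the third quartile with the median as a line, whiskers to 1.5 times that range and points beyond. The IgG1 PC arrays (red) lie slightly below the GFP-positive IgG1 GC arrays (blue) and far above the naive arrays (grey).

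Motifs known from cell cycle promoters were counted in the same windows. The CHR element TTTGAA, bound by the MuvB complexes of G2 and M phase genes, was found for 28 of 40 mitosis genes (70%) and 7 of 37 replication genes (18.9%), against 14.1% of the genes tested. Of the 28, 5 were called lower in IgG1 PC and 23 were not called, beside 22.4% lower over all mitosis genes and 13.1% over all genes tested. Among all genes called lower 15.7% held the CHR element, near its share of the genes tested. Either of 2 E2F forms, TTTCCCGC or TTTGGCGC, was found for 13 of 37 replication genes (35.1%) and 2 of 40 mitosis genes (5%), against 3.42% of the genes tested. Of the 13, 7 were called lower and 6 were not called, beside 35.6% lower over all replication genes. Among all genes called lower 4.94% held an E2F form. Windows of 3 of those 7 are shown with the E2F form in capitals.
Mcm3, chr1:20820275-20820304, plus strand: acttcccaagtTTTCCCGCcacggaagttt
Pold1, chr7:44548766-44548795, plus strand: gctTTTCCCGCcacaagatacgccgccgtg
Pola1, chrX:93632275-93632304, plus strand: gcgggagtgcaTTTGGCGCcctgtgatgac

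Hypermutation and repair genes were lower for 15 of 30 and higher for 0, and for 9 without IgG1 PC replicate 1. Hmces, which shields abasic sites in single-stranded DNA, was at 8.30 and 7.54 in IgG1 PC, against 10.05, 10.08 and 10.18 in IgG1 GC and a mean of 6.46 in naive cells (PC minus GC -2.18). The damage kinase gene Atm fell by 2.19, the abasic endonuclease gene Apex1 by 1.69 and the translesion polymerase gene Rev3l by 1.62.

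Glycolysis genes were lower for 4 of 16, among them Ldha, lactate dehydrogenase (9.03 and 9.36 in IgG1 PC against 10.29, 10.71 and 10.14 in IgG1 GC cells, -1.19), and for 1 or 2 when either IgG1 PC array or GC replicate 1 or 2 was left out. Respiratory chain genes were higher for 5 of 32, among them Ndufa4 (12.66 and 12.18 in IgG1 PC against 11.34, 11.54 and 10.97 in IgG1 GC cells, 1.14). That count was 2 without either IgG1 PC array, 3 without GC replicate 1 and 1 without GC replicate 3. Ribosome biogenesis and nucleolar genes were higher for 2 (7.14%) and lower for 4 (14.3%) of 28, and lower for 1 without IgG1 PC replicate 1. These shares lay near those over all genes tested, 8.32% and 13.1%. Srm, spermidine synthase, rose (9.81 and 10.22 in IgG1 PC against 7.68, 8.27 and 8.0 in IgG1 GC cells). Interferon-stimulated genes were higher for 4 of 15, namely Isg20 (3.55), Ifitm3 (2.97), Bst2 (2.46) and Zbp1 (2.19). None was called lower, against 2 without IgG1 PC replicate 1.

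Markers of other cells were checked for IgG1 PC. Of 9 T cell markers tested 1 was higher (Cd28, which is also a plasma cell gene). The log2 of the list's summed signal was 10.57 to 10.73 in IgG1 PC, 9.01 to 9.14 in IgG1 GC and 10.38 to 10.72 in naive cells. Such a sum is weighted to bright genes and includes Cd28, at 10.10 and 9.95 in IgG1 PC against 4.71, 4.78 and 4.45 in IgG1 GC cells. The median of the 9 markers was 5.39 and 5.64 on the IgG1 PC arrays. It was 4.90, 5.17 and 5.30 on the IgG1 GC arrays and 5.70, 5.79 and 6.08 on the naive arrays. Outside that list, the T cell receptor segment Trav14-1 was at 7.39 and 7.68 in IgG1 PC against 2.94, 2.99 and 3.04 in IgG1 GC cells. Cd4 and Bcl11b lay at or below 5.39 on both IgG1 PC arrays. Of 5 granulocyte markers 1 was higher, Prg2, the major basic protein gene (7.23 and 7.47 in IgG1 PC against 4.40, 4.90 and 4.88 in IgG1 GC cells). The summed signal of that list, which includes Prg2, was 8.73 to 8.76 in IgG1 PC and 7.88 to 8.10 in IgG1 GC cells. The eosinophil gene Epx lay at 4.23 and 4.13 in IgG1 PC, against 4.08, 4.13 and 4.28 in IgG1 GC cells, and was too dim to be tested. Of 8 macrophage and dendritic cell markers 0 were higher and 1 lower, with a summed signal of 9.05 to 9.67 in IgG1 PC and 9.09 to 9.22 in IgG1 GC cells. Of 7 stromal markers 0 were higher and 1 lower, and of 2 basophil markers neither was called. Of 2 natural killer markers 1 was higher, Prf1 (6.10 and 7.67 in IgG1 PC against 5.58, 5.66 and 5.26 in IgG1 GC cells), though not without IgG1 PC replicate 2. IgG1 PC replicate 2 also had more Lyz2, a myeloid gene (4.08 and 7.04 in IgG1 PC against 3.70, 4.60 and 4.10 in IgG1 GC cells). Lyz2 was called without IgG1 PC replicate 1 (2.91), and the part of such cells in any result was not tested.

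Whether the step from GC to PC differed between isotypes was tested as an interaction, the IgG1 difference (PC minus GFP-positive GC) minus the IgE difference (PC minus GC). It was called for 11 genes (0.0909% of those tested), 3 higher and 8 lower, with 822 genes at an unadjusted p under 0.05. List medians of the 2 steps were close for entry and glycosylation (1.64 in IgG1 and 1.71 in IgE) and folding (2.03 and 1.87). They lay further apart for the unfolded protein response (0.97 and 1.73) and the fate factors (2.79 and 1.93). The same held for B cell identity (-2.70 and -1.94), and these differences between medians were not tested. Ifitm3, an antiviral membrane protein gene, was at 7.53 and 7.38 in IgG1 PC against 4.53, 4.47 and 4.46 in IgG1 GC cells, and at 3.89, 3.73, 3.70 and 4.67 in IgE PC against 4.38, 4.19 and 3.88 in IgE GC cells. Of the 4 groups only IgG1 PC lay high, and the interaction was 3.12 (SE 0.36, adjusted p = 0.00688). Smad3, a transducer of TGF-beta signals, was at 8.80 and 8.85 in IgG1 PC against 6.16, 6.08 and 6.15 in IgG1 GC cells, and at 6.71, 7.11, 6.29 and 6.25 in IgE PC against 6.51, 5.97 and 5.88 in IgE GC cells.

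Other genes moved in the IgE step. Enam, an enamel protein gene, was at 3.72 and 4.58 in IgG1 PC against 3.32, 4.20 and 3.12 in IgG1 GC cells, and at 7.28, 7.09, 6.85 and 7.19 in IgE PC against 4.15, 3.56 and 3.45 in IgE GC cells. Its IgG1 difference of 0.60 was not called, except without GC replicate 2 (0.93), with GFP-negative GC arrays in the comparison (0.91) or with all 6 GC arrays (0.75). Slc7a3, a cationic amino acid transporter gene, differed by 0.35 in IgG1 and 2.58 in IgE cells. Hvcn1, a proton channel gene of B cells, was at 6.14 and 6.68 in IgG1 PC against a mean of 10.08 ± 0.09 (SD, n = 3) in IgG1 GC cells, and at 8.03, 8.37, 8.43 and 7.75 in IgE PC against 10.20, 9.74 and 9.76 in IgE GC cells, so it was lower in PC of both isotypes and lower by more in IgG1. Gcsam, a GC signalling adaptor, showed the same order, with differences of -3.97 in IgG1 and -2.07 in IgE cells. The count of 11 was between 2 and 9 when a single array of the other 3 groups was left out. Leaving out an IgG1 PC array leaves 1 in that group, which adds no spread to the fit, so no count is given for it.

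**Figure D5:**
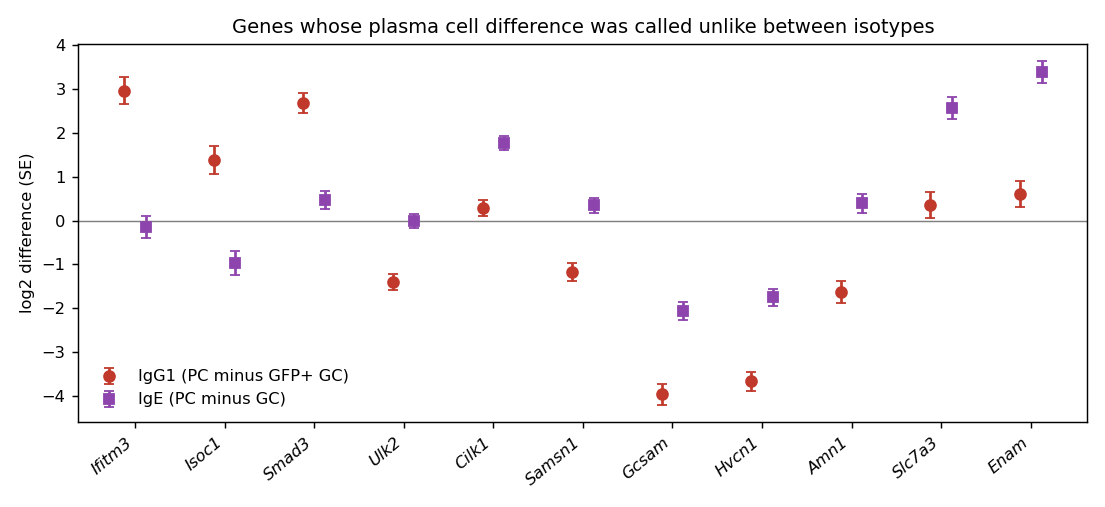
Log2 difference between PC and GC cells (y axis, with SE) for the 11 genes called in the interaction, with IgG1 as red circles and IgE as purple squares. Ifitm3, Isoc1 and Smad3 on the left have the higher value in IgG1, and the other 8 have the lower value in IgG1, with Gcsam and Hvcn1 below 0 in both isotypes.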

How the data were processed

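The labels' protocols state single-primer isothermal amplification from 2 ng of RNA, then hybridisation of 5 ug of biotin-labelled cDNA to Affymetrix Mouse Gene ST arrays. The deposited log2 values are, per the submitters' processing notes, robust multi-array averages (RMA, in R 2.15.2). RMA corrects background, gives all arrays 1 distribution and reduces the probes to 1 value a probe set. The sources used here do not say whether 1 RMA run covered both experiments, so only the 18 arrays of the first experiment were used. Signals near background compress the differences of dim genes.

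Of the 34760 probe sets, measured on 30 arrays, 21640 had 1 symbol in the platform annotation, 1321 had more and 11799 had no symbol. Symbols were updated through gene IDs for 21553 of the 21640 from a RefSeq table of assembly GRCm38.p6. The probe set with the highest mean was kept for each of 19937 genes, and 12098 genes above their array's median on at least 2 of the 18 arrays were tested. limma 3.58.1 (lmFit and eBayes, R 4.3.3) was fitted to the 6 groups together, so that all shared 1 estimate of the spread, and p-values were adjusted by Benjamini-Hochberg over all genes tested. Calls needed an adjusted p under 0.05. Simulated data had the same size and spread. In the comparison of IgG1 PC with IgG1 GC cells, 43 of 100 genes changed by a log2 of 1 and 94 of 100 changed by a log2 of 2 were called. So were 8 unchanged genes. Only these genes were changed in the simulation, whereas 21.4% of genes were called in the data. The adjustment depends on how many genes change, so the shares called may not hold for the data. Between 2 and 4 arrays a group limit the precision. No source used here names a hybridisation batch, so none was tested.

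Gene lists were written from textbook knowledge. The comparison, lists and tests were chosen with earlier results of these data known, so no list count is independent evidence, and lists share genes. Genes were named from the 15 with the largest difference each way among those called with arrays that did not overlap, all fate factors, sort markers and immunoglobulin assembly genes, and up to 8 called genes of every other list with members not called where the text counts them, and the genes called in the interaction. MicroRNA and histone genes were named after their values were seen. The promoter search used RefSeq sequences of build GRCm38.p6, found for 9623 of the genes tested. A planned count of ER retention signals at protein ends was not run. Alternatives were another normalization, other filters, other probe set rules, another variance model, the replicate number as a block, other GC arrays, and each array left out. Figures were drawn with matplotlib 3.10.9.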

Additional observations from a re-analysis of the deposited data

Results flagged for a closer look

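The GC to PC difference was called unlike between IgG1 and IgE for 11 genes, given here as the IgG1 difference minus the IgE difference on the log2 scale. It was higher in IgG1 for Ifitm3 (3.12), Isoc1 (2.35) and Smad3 (2.22). It was lower in IgG1 for Enam (-2.79), Slc7a3 (-2.23), Amn1 (-2.03), Hvcn1 (-1.92), Gcsam (-1.90), Samsn1 (-1.52), Cilk1 (-1.48) and Ulk2 (-1.38). Amn1, Samsn1 and Ulk2 were lower in IgG1 PC than in IgG1 GC cells (-1.64, -1.17 and -1.40), beside IgE differences of 0.39, 0.35 and -0.02. Isoc1 differed by 1.38 in IgG1 and -0.97 in IgE cells, and Cilk1 by 0.29 and 1.77. Ifitm3 was called under all 18 alternatives that gave it a value, Smad3 under 18 of 19, Enam under 16 of 18 and Hvcn1 under 15 of 19, while each of the other 7 was called under 6 to 10 of its alternatives.

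For Samsn1, an adaptor that restrains B cell activation, 1 of the 4 IgE PC arrays stood apart, at 9.61 beside 9.34, 9.33 and 9.37. It was the only such array among 11 groups of 4 examined, where chance gives about 1 in 20.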

How the results depend on the processing

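The calls between IgG1 PC and GFP-positive IgG1 GC cells stayed within 1.5 times their main counts under all alternatives run. No called gene was called in the opposite direction in any of them. Every fit without an IgG1 PC array has 1 array in that group, so its spread comes from the other groups only. The main calls shared in the same direction were 1833 in a fit of the compared groups alone, 2431 after a further quantile normalization, 1702 without IgG1 PC replicate 1 and 1745 without replicate 2. In all, 1198 of the 2593 calls (46.2%) were kept through every one of those settings, the removed filter, the mean of probe sets, the other variance model, the replicate block and each single array left out. Leaving out 1 array gave 2029 to 2479 calls, 757 to 899 higher and 1149 to 1621 lower. With GFP-negative GC arrays in place of the GFP-positive ones 3104 genes were called, and with all 6 GC arrays 3384. Against naive cells the count of 3540 was 1670 with only those groups in the fit, and 2657 to 2944 without an IgG1 PC array.

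The interaction depended most on the setting. Its 11 calls became 1 with only the 4 groups in the fit, 5 with the replicate block, and 2 to 37 when 1 array was left out. Whether the separate sorts of same-numbered arrays shared a day is not stated in the sources used here. With 2 pairs the check is weak: same-numbered PC and GC arrays had deviations correlated at 0.063 and 0.055, so they were not treated as pairs. The replicate block gave 2601 calls between IgG1 PC and GC cells (964 higher and 1637 lower), of which 2404 were main calls. Among genes named it ended the call of Ezh2 and added H2-Ab1 (-0.68).

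Genes that were not called changed sign in some settings. Leaving out 1 IgG1 PC or GC array moved Bcl11b between -0.06 and 0.05, Chac1 between -0.18 and 1.41, Cxcr4 between -0.23 and 0.28, Eif2ak3 between -0.43 and 0.22, Lyz2 between -0.06 and 2.91, and Pou2af1 between -0.11 and 0.08. It moved Slc7a3 between -0.18 and 0.88, Stt3b between -0.42 and 0.11, Trib3 between -0.19 and 0.01, and Zbtb20 between -1.34 and 0.02. The sign turned without IgG1 PC replicate 2 for all of these but Chac1, which turned without replicate 1. The replicate block turned Bcl11b (0.05) and Pou2af1 (0.07), and quantile normalization Cxcr4 (-0.13). With GFP-negative or all GC arrays these were Bcl11b (0.08 and 0.04), Cxcr4 (-0.06 and -0.02) and Cd24a (-0.03 with the first). Canx and Cd74 were called with the other variance model and with all 6 GC arrays, and Atf4 with all 6 GC arrays. Fitting only the groups compared ended the calls of Cd80, Ddit3, Derl2, Ezh2, H2-Aa and Prf1. For the division lists the same fit gave 10 replication genes lower in place of 16, and all 6 GC arrays gave 17 mitosis genes lower in place of 11. The stricter filter kept 7 of the 12 surface genes called higher, since fewer genes were tested. The cause of the other shifts was not tested. With 2 IgG1 PC arrays, differences near 2-fold can be missed, and genes not called are not shown to be alike.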

Other observations

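Probe sets of 107 microRNA genes were tested, which on these arrays read the primary transcript or hairpin and not the mature microRNA. In IgG1 PC 2 of the 107 were higher and 3 lower than in GFP-positive IgG1 GC cells. Calls were thus rarer than over all genes tested, of which 8.32% were higher and 13.1% lower. Many of these probe sets lay near the array medians of 5.28 to 5.47, and differences of dim genes are compressed. The part of dim signals in the low count was not tested. Mir15a, of a cluster lost in chronic lymphocytic leukaemia, was at 4.24 and 4.97 in IgG1 PC against 6.20, 8.06 and 8.26 in IgG1 GC cells (difference -2.90, SE 0.70, limma adjusted p = 0.00642), and was not called without IgG1 PC replicate 1 (-2.54, limma adjusted p = 0.0685). Mir16-1, of the same cluster, was at 4.41 and 5.02 in IgG1 PC and 4.75, 4.94 and 5.84 in IgG1 GC cells, with overlapping arrays, and was not called (-0.46, limma adjusted p = 0.47). Mir103-2 was at 4.79 and 3.48 in IgG1 PC against 5.75, 6.77 and 7.87 in IgG1 GC cells (-2.66, SE 0.91, limma adjusted p = 0.0471). It was not called without either IgG1 PC array, without GC replicate 2 or 3, after the further quantile normalization or with no filter on dim genes (limma adjusted p up to 0.291). The IgG1 GC arrays spread widely for both. The mature sequences (RefSeq, GRCm38.p6) are shown because their seeds, bases 2 to 8 in capitals, share letters.
mmu-miR-15a-5p, chr14:61632075-61632096, minus strand: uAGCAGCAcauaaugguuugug
mmu-miR-103-3p, chr2:131288103-131288125, plus strand: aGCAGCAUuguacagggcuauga

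Families chosen after their values were seen are given as description only. Of 57 ribosomal protein genes 1 was higher and 1 lower (1.75% each), with a median of -0.12. Of 25 histone genes 1 was higher and 1 lower (4% each). Over all genes tested the shares were 8.32% higher and 13.1% lower. The histone that rose was the linker histone gene H1f2, at 9.26 and 9.23 in IgG1 PC, against 6.38, 6.58 and 5.87 in IgG1 GC and 5.81, 7.74 and 6.92 in naive cells (PC minus GC 2.97).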
